A study of Mus musculus with 6 samples.

Results

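The genes of MHC class I presentation and of the immunoproteasome were examined in mdx myoblasts treated with PSB-KD107 or with vehicle. The group was made of 10 genes out of the 47069 listed in the count table, taken by symbol, namely the heavy chains H2-K1 and H2-D1, the light chain B2m, the peptide transporter and loading genes Tap1, Tap2 and Tapbp, the inducible proteasome subunits Psmb8, Psmb9 and Psmb10, and the transactivator Nlrc5. They were chosen after their levels in these same libraries were known, so the differences between libraries given for them are descriptions. All 10 passed the filter on low counts, which kept 14165 genes. Nlrc5, with 12, 9 and 9 counts with vehicle, passed it only through the PSB-KD107 libraries (85, 35 and 379 counts).

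Myoblasts are progenitors of muscle fibers. The cells came from the muscles of mdx mice, which lack dystrophin and model Duchenne muscular dystrophy, and were sorted with antibodies against Itgb1 and Itga7 after cells bearing Sca-1, CD45, CD31 or CD11b had been left out. They were grown with serum and FGF2 and received either vehicle, which was DMSO in aqueous buffer, or 10 μM PSB-KD107, a synthetic agonist of the receptor Gpr18. All 6 libraries therefore share the mdx background, the sort and the medium, and no wild-type cells were analysed here. Treatment lasted 2 days according to the sample records. The methods of the study give an overnight treatment and state that the cells came from different mice. The records also call the agonist PSB-KD-1 and the vehicle group untreated or control.

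MHC class I molecules display peptides from inside the cell to cytotoxic T cells. The immunoproteasome cuts proteins with inducible catalytic subunits that take the place of constitutive ones, the transporter formed by Tap1 and Tap2 carries the peptides into the endoplasmic reticulum, and tapasin, encoded by Tapbp, helps to load them onto a heavy chain bound to B2m. Interferons raise most of these genes in many cell types, partly through Nlrc5, and resting muscle cells are known for low levels of class I.

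Each group had 3 libraries, numbered 1, 2 and 4 in the count table, with 30917613 to 48756794 counts per library. Levels are given in CPM, which are counts relative to the size of the library after TMM scaling (factors of 0.974 to 1.03), and 3 counts equal 0.0596 to 0.0962 CPM depending on the library. PSB-KD107 library 4 stood apart from the other libraries. It was at least 2-fold above every other library for 507 of the 14165 genes tested (3.58%), against 169 genes for vehicle library 1, 69 for PSB-KD107 library 1, and 18 or fewer for each of the other three. Each PSB-KD107 library was therefore set separately against the vehicle libraries, and fitted values are given with and without library 4.

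The upstream sequences of the class I chains are shown first, because letter patterns bound by factors of the interferon, NF-κB and Nlrc5 pathways can be seen in them. They are the 250 bases before the RefSeq start of H2-K1 (GRCm38.p6, chr17:34000348-34000597, minus strand), H2-D1 (chr17:35262844-35263093, plus strand) and B2m (chr2:122147437-122147686, plus strand), written 5′ to 3′. For H2-D1 the GENCODE gene begins before the RefSeq start, so that this whole window lies within the annotated gene. Capitals mark, in H2-K1 and H2-D1, a κB match, an interferon regulatory factor match read on the opposite strand, and the pair TGACG and ATTGG. In B2m they mark an interferon-stimulated response element match and the same pair.
H2-K1: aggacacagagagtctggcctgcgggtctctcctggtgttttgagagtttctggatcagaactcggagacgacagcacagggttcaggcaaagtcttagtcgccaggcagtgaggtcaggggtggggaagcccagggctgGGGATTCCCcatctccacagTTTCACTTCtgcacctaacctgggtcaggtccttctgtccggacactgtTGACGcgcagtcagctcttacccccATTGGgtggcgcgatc
H2-D1: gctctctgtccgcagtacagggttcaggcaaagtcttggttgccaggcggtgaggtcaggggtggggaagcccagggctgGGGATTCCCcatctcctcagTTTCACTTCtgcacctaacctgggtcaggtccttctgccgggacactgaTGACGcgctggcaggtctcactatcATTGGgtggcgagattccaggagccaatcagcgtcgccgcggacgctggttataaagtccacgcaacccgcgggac
B2m: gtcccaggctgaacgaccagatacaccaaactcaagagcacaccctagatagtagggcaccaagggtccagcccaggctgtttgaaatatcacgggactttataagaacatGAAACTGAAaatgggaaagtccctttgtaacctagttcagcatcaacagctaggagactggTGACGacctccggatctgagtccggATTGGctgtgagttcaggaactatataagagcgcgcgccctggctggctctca

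The patterns were read on both strands in the same 250 bases of 32851 RefSeq starts. Their letters were chosen after the sequences shown had been read, so the shares of all windows are no test of the matches. The κB letters GGGATTCCC were found upstream of H2-K1 and H2-D1 and in 0.301% of all windows. GAANNGAAA was also found upstream of both heavy chains and in 6.31% of all windows. The related GAAANNGAA, with another spacing of the same letters, was found upstream of B2m and in 7.13%. The pair TGACG and ATTGG on 1 strand with 20 bases between them, the arrangement of the X2 and Y boxes of MHC promoters, was found upstream of H2-K1, H2-D1 and B2m and in 0.0913% of all windows. Upstream of H2-K1 its first base lay at -41, upstream of H2-D1 at -101 and upstream of B2m at -78, counted from the RefSeq start. The heavy chain sequences had 166 identical bases of 190 aligned (87.4%).

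A promoter was found for 8 of the 10 genes, and those of Tap2 and Nlrc5 were not analysed here. Upstream of Psmb8 only TTCNNNGAA was found, the letters of a gamma-activated site, which 7.02% of all windows held. In the windows of Tap1, Psmb9, Tapbp and Psmb10 these letters were not present. For Tapbp, Psmb8 and Psmb9, as for H2-D1, the whole window lies within the annotated gene. An absent match there does not describe the bases before the annotated start. The Psmb10 window lies partly within its gene. The RefSeq starts of Psmb9 and Tap1 face away from each other with 225 bases between them, and their windows cover nearly the same sequence. A letter match describes the sequence and is no measure of binding.

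**Figure D1:**
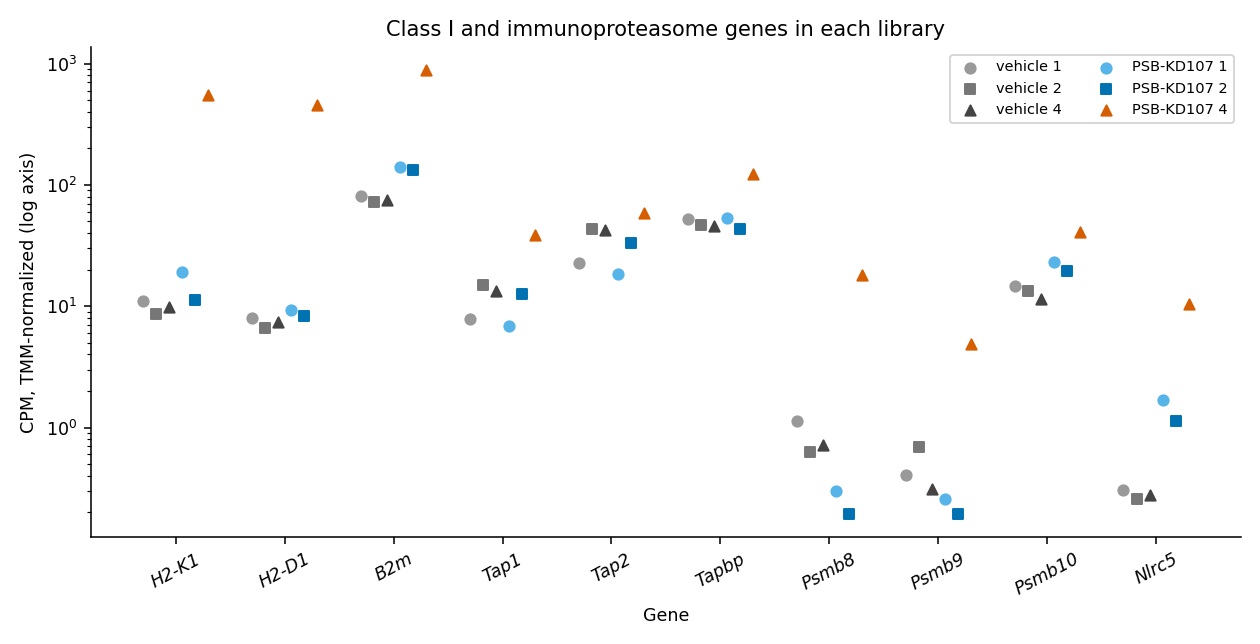
Level of each gene in each library, as TMM-normalized CPM on a log axis, with gray symbols for the vehicle libraries and colored symbols for the PSB-KD107 libraries. PSB-KD107 library 4 is the highest library for all 10 genes, from 4.92 CPM for Psmb9 to 892 CPM for B2m.

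The 10 genes spanned a wide range in vehicle-treated myoblasts. On a scale that also divides by the length of the exons (FPKM), B2m stood at 84.3 to 94.99 FPKM over the vehicle libraries and Tapbp at 12.6 to 14.6 FPKM. Psmb10 (6.79 to 8.57 FPKM) and Tap2 (6.01 to 11.4 FPKM) followed, with overlapping ranges. H2-K1 was at 2.94 to 3.75 FPKM, H2-D1 at 2.58 to 3.10 FPKM and Tap1 at 1.43 to 2.72 FPKM, each overlapping with its neighbor in this order. Psmb8 (0.186 to 0.332 FPKM) overlapped with Psmb9 (0.0848 to 0.188 FPKM), and Nlrc5 was lowest at 0.0303 to 0.0360 FPKM. In PSB-KD107 library 4 the order was different, with B2m at 1038, H2-K1 at 186 and H2-D1 at 178 FPKM ahead of Tapbp at 33.8 FPKM. In bulk RNA, fewer cells expressing a gene and less RNA per cell cannot be told apart.

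The heavy chains bind the peptide and are recognized by T cell receptors. H2-K1 (ENSMUSG00000061232, GRCm38 chromosome 17 from 33996017 to 34000347, minus strand) was at 11.02, 8.65 and 9.80 CPM in vehicle libraries 1, 2 and 4 and at 19.0, 11.3 and 547 CPM in PSB-KD107 libraries 1, 2 and 4. All PSB-KD107 libraries were above the vehicle libraries, library 2 by a small margin and library 4 by far. The difference from the vehicle mean in log2(CPM + 0.1) was 0.95 in library 1, 0.20 in library 2 and 5.79 in library 4. The fitted log2 fold change was 4.29 with a standard error of 1.57 (adjusted p = 0.478, edgeR), and 0.62 with a standard error of 0.26 when PSB-KD107 library 4 was left out.

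H2-D1 (ENSMUSG00000073411, chromosome 17 from 35262730 to 35267499, plus strand) was at 7.99, 6.64 and 7.48 CPM with vehicle and at 9.24, 8.31 and 458 CPM with PSB-KD107. The order of the libraries was that of H2-K1, with no overlap between the groups and library 4 alone at a high level. The difference from the vehicle mean on the log2 scale was 0.33, 0.17 and 5.94 in libraries 1, 2 and 4. The fitted log2 change of 4.43 ± 1.69 (SE, adjusted p = 0.500, edgeR) became 0.25 (standard error 0.16) without library 4. Reads of class I genes can be split by similar copies, and 0.96% of the 100-base stretches of the transcripts of H2-K1 and 3.59% of those of H2-D1 also occur in other genes.

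B2m (ENSMUSG00000060802, chromosome 2 from 122147686 to 122153083, plus strand) encodes the light chain that every class I heavy chain needs to reach the surface. It was at 81.7, 72.5 and 74.6 CPM with vehicle (mean 76.3 ± 4.83, SD, n = 3) and at 139, 132 and 892 CPM with PSB-KD107. Here libraries 1 and 2 were also clearly above the vehicle libraries, at 1.83-fold and 1.73-fold the vehicle mean, and library 4 was at 11.7-fold. The fit gave a log2 change of 2.35 ± 0.80 (SE, adjusted p = 0.448, edgeR). Without library 4 it was 0.83 with a standard error of 0.09 (adjusted p = 0.103, edgeR, and 3.87e-09, DESeq2). B2m overlaps with Patl2 on the opposite strand, and the use of strand in counting is not given in the sources used here.

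The heavy chains and the light chain were not in the same proportion in all libraries. H2-K1 and H2-D1 together stood at 0.0721, 0.0655 and 0.0719 FPKM per FPKM of B2m in the vehicle libraries and at 0.0621 and 0.0459 in PSB-KD107 libraries 1 and 2. In library 4 the ratio was 0.351. Libraries 1 and 2 thus lay below the vehicle libraries in this ratio and library 4 above them.

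Tap1 and Tap2 form the transporter that moves peptides into the endoplasmic reticulum. Tap1 (ENSMUSG00000037321, chromosome 17 from 34187553 to 34197225, plus strand) was at 7.86, 14.9 and 13.3 CPM with vehicle and at 6.92, 12.5 and 38.8 CPM with PSB-KD107. Library 1 was below all vehicle libraries, library 2 among them and library 4 above them. The fit gave a log2 change of 0.69 ± 0.65 (SE, adjusted p = 0.781, edgeR), and -0.31 (standard error 0.39) without library 4.

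Tap2 (ENSMUSG00000024339, chromosome 17 from 34203527 to 34216321, plus strand) was at 22.7, 43.1 and 42.2 CPM with vehicle and at 18.3, 33.4 and 58.8 CPM with PSB-KD107. Library 4 was highest, but by 1.36-fold over the next library, and the groups overlapped. The fit gave a log2 change of 0.03 ± 0.46 (SE, adjusted p = 0.986, edgeR), and -0.48 (standard error 0.40) without library 4. For both transporter genes, vehicle library 1 and PSB-KD107 library 1 were the lowest of their group. The ratio of the transporter genes was 0.239, 0.239 and 0.218 FPKM of Tap1 per FPKM of Tap2 with vehicle, 0.261 and 0.259 in PSB-KD107 libraries 1 and 2, and 0.456 in library 4. It was thus close in all libraries except library 4, where it was higher.

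Tapbp (ENSMUSG00000024308, chromosome 17 from 33915899 to 33929292, plus strand), which encodes tapasin, was at 52.8, 46.8 and 45.8 CPM with vehicle and at 53.2, 43.0 and 123 CPM with PSB-KD107. Library 1 was just above, library 2 just below and library 4 well above the vehicle libraries. In the fit its log2 change was 0.59 ± 0.40 (SE, adjusted p = 0.695, edgeR), and -0.01 (standard error 0.13) without library 4.

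**Figure D2:**
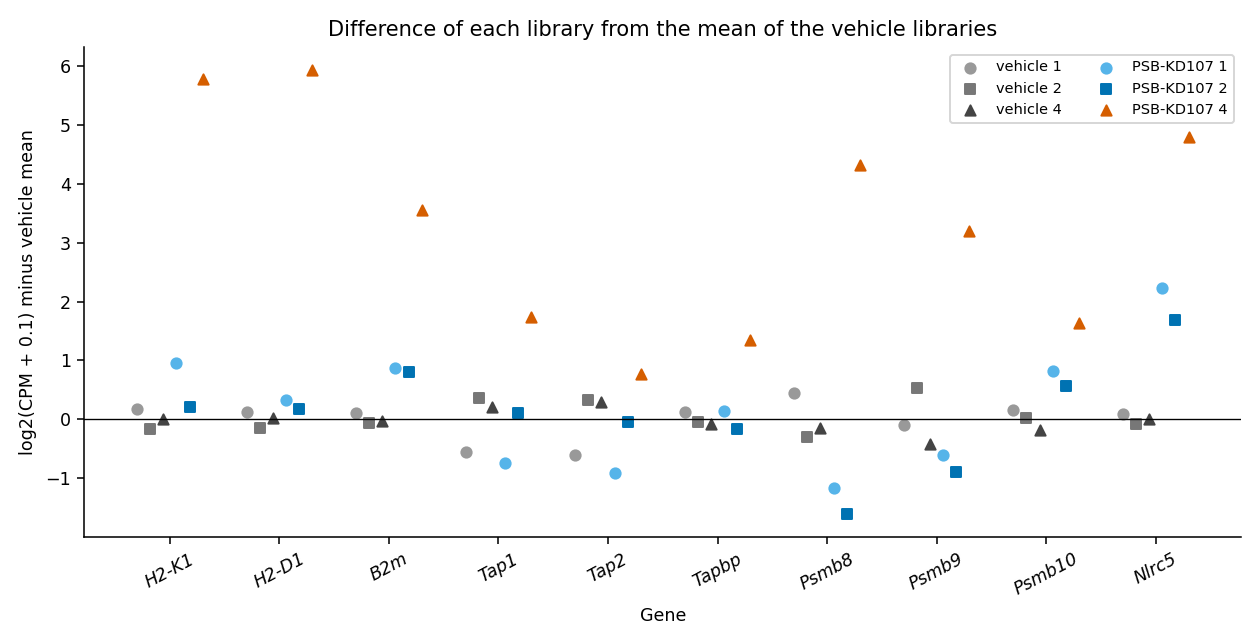
Difference of each library from the mean of the vehicle libraries in log2(CPM + 0.1), for each gene, with 0 as the vehicle mean. In PSB-KD107 library 4 the values run from 0.77 for Tap2 to 5.94 for H2-D1, while libraries 1 and 2 are above 0 for B2m, Psmb10 and Nlrc5 and below 0 for Psmb8 and Psmb9.

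The inducible proteasome subunits Psmb8, Psmb9 and Psmb10 take the places of Psmb5, Psmb6 and Psmb7. Psmb8 (ENSMUSG00000024338, chromosome 17 from 34197721 to 34201454, plus strand) had 44, 22 and 23 counts with vehicle (1.12, 0.630 and 0.713 CPM) and 15, 6 and 652 counts with PSB-KD107 (0.298, 0.192 and 17.9 CPM). Libraries 1 and 2 were below all vehicle libraries and library 4 above them. At these depths the exact 95% Poisson interval, which covers counting error only, was 0.395 to 0.954 CPM in vehicle library 2. In PSB-KD107 library 1 it was 0.167 to 0.492 CPM, so the intervals of these neighboring values overlapped. That of vehicle library 1, 0.816 to 1.51 CPM, lay above those of PSB-KD107 libraries 1 and 2. The fit gave a log2 change of 2.89 ± 1.68 (SE, adjusted p = 0.657, edgeR), and -1.71 (standard error 0.46, adjusted p = 0.288, edgeR) without library 4.

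Psmb9 (ENSMUSG00000096727, chromosome 17 from 34181987 to 34187764, minus strand) was lower still, with 16, 24 and 10 counts with vehicle (0.408, 0.687 and 0.310 CPM) and 13, 6 and 179 counts with PSB-KD107 (0.258, 0.192 and 4.92 CPM). Libraries 1 and 2 were again below the vehicle libraries, within counting error of vehicle library 4, whose exact interval was 0.149 to 0.571 CPM. In the fit its log2 change was 1.92 ± 1.28 (SE, adjusted p = 0.694, edgeR), and -1.03 (standard error 0.51) without library 4. Psmb9 overlaps with Tap1 on the opposite strand.

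Psmb10 (ENSMUSG00000031897, chromosome 8 from 105935735 to 105938444, minus strand) was at 14.6, 13.3 and 11.6 CPM with vehicle (mean 13.2 ± 1.53, SD, n = 3) and at 23.3, 19.4 and 40.9 CPM with PSB-KD107. Unlike the other inducible subunits it was above the vehicle libraries in all PSB-KD107 libraries, at 1.77-fold, 1.47-fold and 3.10-fold the vehicle mean in libraries 1, 2 and 4. The fit gave a log2 change of 1.08 ± 0.30 (SE, adjusted p = 0.359, edgeR), and 0.70 (standard error 0.16, adjusted p = 0.238, edgeR) without library 4.

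The constitutive subunits Psmb5, Psmb6 and Psmb7 had fitted log2 fold changes of 0.23 (standard error 0.29), -0.05 (standard error 0.10) and 0.00 (standard error 0.09), and PSB-KD107 library 4 was at 132, 157 and 209 CPM for them, against 81.6 to 138, 168 to 186 and 201 to 221 CPM over the vehicle libraries. The ratio of each inducible subunit to the one it replaces followed the inducible subunit. Psmb8 stood at 0.216, 0.196 and 0.233 FPKM per 100 FPKM of Psmb5 with vehicle, at 0.0553 and 0.0617 in PSB-KD107 libraries 1 and 2 and at 3.61 in library 4. Psmb9 stood at 0.112, 0.210 and 0.0889 FPKM per 100 FPKM of Psmb6 with vehicle, at 0.0728 and 0.0558 in libraries 1 and 2 and at 1.61 in library 4. Psmb10 stood at 13.3, 13.2 and 11.5 FPKM per 100 FPKM of Psmb7 with vehicle and at 22.1, 19.0 and 39.2 with PSB-KD107. On this scale Psmb10 was the most abundant inducible subunit relative to its partner in every library. Psmb8 and Psmb9 stayed under 4 FPKM per 100 FPKM of theirs even in library 4. The gap between pairs depends on the exon lengths, which join all annotated exons of a gene. They were 3381 bases for Psmb8 and 899 for Psmb5, but 1705 for Psmb10 and 3421 for Psmb7. In CPM the gap was smaller, with 17.9 for Psmb8 against 132 for Psmb5 in library 4, and 40.9 for Psmb10 against 209 for Psmb7. For Psmb5, 22.2% of the 100-base stretches of its transcripts occur in other genes, which makes its level less certain.

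**Figure D3:**
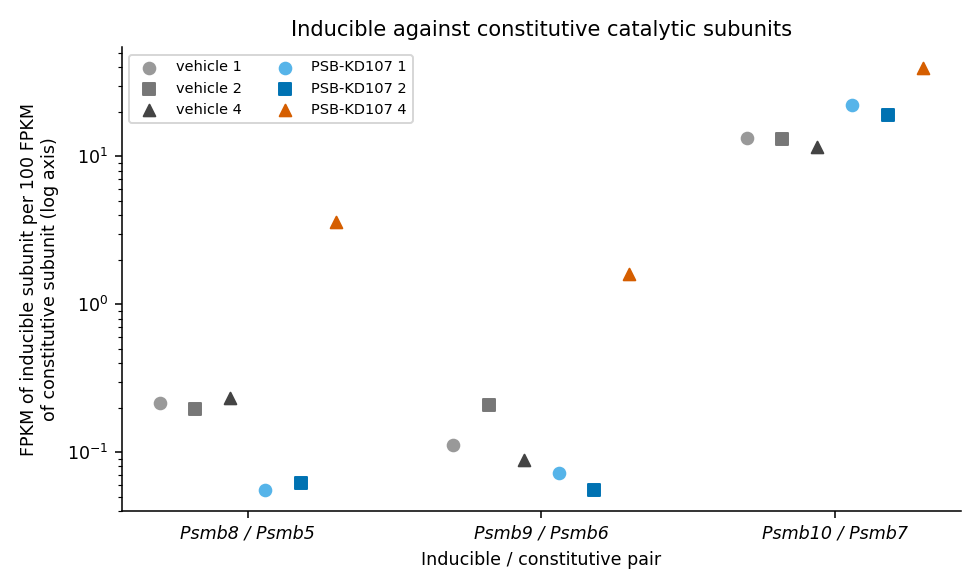
FPKM of each inducible subunit per 100 FPKM of the constitutive subunit it replaces, on a log axis, with 1 point per library. The Psmb8 and Psmb9 ratios are lower in PSB-KD107 libraries 1 and 2 than in the vehicle libraries and higher in library 4, and the Psmb10 ratio is higher in all PSB-KD107 libraries.

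Nlrc5 is the transactivator of class I genes, and acts on their promoters together with Rfx and other factors. Nlrc5 (ENSMUSG00000074151, chromosome 8 from 94434356 to 94527272, plus strand) had 12, 9 and 9 counts with vehicle and 85, 35 and 379 counts with PSB-KD107. This gave 0.306, 0.258 and 0.279 CPM with vehicle (mean 0.281 ± 0.0242, SD, n = 3) and 1.69, 1.12 and 10.4 CPM with PSB-KD107. The PSB-KD107 libraries 1 and 2 were at 6.01-fold and 3.99-fold the vehicle mean and library 4 at 37.1-fold, so that each was above every vehicle library. The exact 95% interval of the lowest PSB-KD107 library, 0.782 to 1.56 CPM, lay above that of the highest vehicle library, 0.158 to 0.535 CPM. Nlrc5 had the highest difference of the 10 genes in libraries 1 and 2. In the fit its log2 change was 3.96 ± 0.97 (SE, adjusted p = 0.294, edgeR, and 5.47e-04, DESeq2), and 2.31 (standard error 0.34, adjusted p = 0.141, edgeR, and 0.00115, DESeq2) without library 4.

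Counted together, 6 of the 10 genes were above all vehicle libraries in PSB-KD107 library 1 and 4 were below them, where 29.8% and 30.0% of all genes tested were. In library 2, 5 were above and 3 below, against 27.5% and 23% of all genes. In library 4 all 10 were above, against 33.8%. The 5 genes above the vehicle libraries in both libraries 1 and 2, H2-K1, H2-D1, B2m, Psmb10 and Nlrc5, are also those whose groups did not overlap, which held for 15.2% of all genes in the first case and, with PSB-KD107 higher, for 9.2% in the second. Psmb8 and Psmb9 were below in both, as were 11.4% of all genes. In library 4, 8 of the 10 genes were at least 2-fold above every other library (3.58% of all genes), with Tap2 and Psmb10 as the exceptions, and 6 were at least 4-fold above (1.18% of all genes). The median difference of the 10 genes from the vehicle mean was 0.23 in library 1, 0.14 in library 2 and 3.37 in library 4 on the log2 scale, against 0.00, 0.01 and 0.00 for all genes tested. Their values were used to choose them, so these counts describe the choice. Nlrc5 moreover passed the filter only through the PSB-KD107 libraries, where it is high.

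In the quasi-likelihood test of edgeR, 0 of the 14165 genes had an adjusted p under 0.05 (0.0%), none of the 10 among them, and the smallest adjusted p of any gene was 0.0738. At an unadjusted p under 0.05 there were 1331 genes (9.4%), including H2-K1, H2-D1, B2m, Psmb10 and Nlrc5. With DESeq2, the tool of the study's methods, 410 of the 13761 genes with an adjusted p were called (2.98%), including B2m (adjusted p = 0.0273), Psmb10 (adjusted p = 0.0437) and Nlrc5 (adjusted p = 5.47e-04), all higher. Of these only Nlrc5 was called by DESeq2 whichever library was left out. Nlrc5 was chosen with its levels in these libraries known, so its calls are a description and no independent support. DESeq2 gave no adjusted p for H2-K1, H2-D1, Psmb8 and Psmb9 with all 6 libraries. Without PSB-KD107 library 2, where it called 768 genes, it called H2-K1 (adjusted p = 0.0132, DESeq2) and H2-D1 (adjusted p = 0.0229, DESeq2). Neither was called without PSB-KD107 library 1 (adjusted p = 0.0618 and 0.0557, DESeq2) or library 4 (adjusted p = 0.39 and 0.789, DESeq2). Without PSB-KD107 library 4, DESeq2 called 674 of 13133 genes (5.13%), again including B2m, Psmb10 and Nlrc5, and edgeR called 0 of 14447 (0.0%). The median fitted log2 fold change of the 10 genes was 2.14, and 0.12 without PSB-KD107 library 4. With the replicate number as a block on the libraries numbered 1 and 2 alone, edgeR called 2456 of 14400 genes (17.1%). They included 6 of the 10, namely H2-K1, B2m, Psmb10 and Nlrc5, which were higher, and Tap2 and Psmb8, which were lower. The same 4 libraries without the block gave 0 calls, and the block leaves 1 residual degree of freedom. The smallest two-sided p that exact permutation of 3 against 3 libraries allows is 0.1.

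The other genes of the pathway were taken from lists written by hand with results of these data known. Among 20 other class I heavy chain genes, 8 passed the filter, 4 had no count in any library, and 0 were called by edgeR or DESeq2. Their median difference was 0.27, -0.36 and 1.72 in PSB-KD107 libraries 1, 2 and 4, and 4 of the 8 were at least 2-fold above every other library in library 4. H2-T22, a nonclassical class I gene, was at 13.6, 10.1 and 8.25 CPM with vehicle and at 13.8, 7.70 and 67.1 CPM with PSB-KD107. H2-T23, the mouse Qa-1 gene, was at 2.98, 1.35 and 0.993 CPM with vehicle and at 1.71, 0.738 and 35.9 CPM with PSB-KD107. H2-M3, which presents formylated peptides, was at 1.45, 0.831 and 0.651 CPM with vehicle and at 1.57, 0.738 and 7.37 CPM with PSB-KD107. In all of these only library 4 was far from the vehicle libraries. H2-Q4 failed the filter, which asks for counts in several libraries, and was named after its values were seen, as it had 10, 3 and 2 counts with vehicle, 26 and 2 in PSB-KD107 libraries 1 and 2, and 1364 in library 4. Fcgrt, the receptor that salvages IgG and the most abundant gene of the list, was at 46.7 to 68.3 CPM with vehicle and at 36.7, 60.0 and 63.2 CPM with PSB-KD107, so that its groups overlapped.

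Peptide loading and trimming was represented by 17 genes, all tested, with a median fitted log2 fold change of 0.17, of which edgeR called 0 and DESeq2 called 1, higher. That gene was Canx, the chaperone calnexin that folds new heavy chains, at 505, 509 and 509 CPM with vehicle and at 686, 706 and 668 CPM with PSB-KD107, with a log2 change of 0.44 ± 0.09 (SE, adjusted p = 0.230, edgeR) and of 0.45 without library 4. The level was similar in the 3 PSB-KD107 libraries. Hspa5, the chaperone BiP and the most abundant gene of this list, was at 844, 758 and 700 CPM with vehicle and at 1219, 972 and 1026 CPM with PSB-KD107. Thop1, a cytosolic peptidase that destroys peptides, was at 453, 500 and 518 CPM with vehicle and at 294, 403 and 374 CPM with PSB-KD107. The groups did not overlap for these 3 genes, which were picked by their p-values, and their library 4 lay within or near the range of libraries 1 and 2. In the whole list the groups did not overlap for 5 genes with PSB-KD107 higher and for 1 with PSB-KD107 lower, against 9.2% and 6.59% of all genes tested. Its median difference was 0.18, 0.10 and 0.32 in PSB-KD107 libraries 1, 2 and 4. In library 4, 1 gene was at least 2-fold above every other library (3.58% of all genes). It was Erap1, named after its values were seen, at 10.7, 8.56 and 9.90 CPM with vehicle and at 12.3, 8.47 and 30.3 CPM with PSB-KD107.

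Of 10 genes of proteasome activators and assembly, all tested, 0 were called by edgeR or DESeq2, and the median fitted log2 fold change was 0.08. Psme1, a subunit of the activator PA28, was at 34.7, 18.1 and 18.4 CPM with vehicle and at 28.6, 17.0 and 61.4 CPM with PSB-KD107. Psme4, another activator and the most abundant of the list, was at 288 to 318 CPM with vehicle and at 323, 351 and 365 CPM with PSB-KD107. Psmf1, an inhibitor of the proteasome, was at 21.96 to 23.7 CPM with vehicle and at 27.9, 25.8 and 25.6 CPM with PSB-KD107. The groups overlapped for Psme1 and not for Psme4 and Psmf1, and these 3 genes were picked by their p-values. Over the 10 genes the groups did not overlap for 2, both with PSB-KD107 higher, against 9.2% of all genes tested.

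The 22 transcription factors of class I genes had a median fitted log2 fold change of 0.02, and DESeq2 called 1 of them, lower, while edgeR called 0. It was Rfx5, a partner of Nlrc5 on MHC promoters, at 20.5, 23.5 and 23.7 CPM with vehicle and at 15.0, 16.9 and 12.4 CPM with PSB-KD107 (adjusted p = 0.330, edgeR, and 0.034, DESeq2). Nlrc5 was thus higher and Rfx5 lower in every PSB-KD107 library than in the vehicle libraries, as were 9.2% and 6.59% of all genes tested. Among the 22 factors the groups did not overlap for 1 gene with PSB-KD107 higher and for 3 with PSB-KD107 lower. Rfxap and Rfxank, the other Rfx genes listed, had fitted log2 fold changes of 0.16 (standard error 0.13) and 0.16 (standard error 0.16), and their groups overlapped. Irf7, a driver of the type I interferon response, was at 1.38, 0.802 and 1.27 CPM with vehicle and at 1.93, 1.12 and 207 CPM with PSB-KD107. Libraries 1 and 2 lay in or near the range of the vehicle libraries and library 4 far above. Nfkb2, a precursor of an NF-κB subunit and the most abundant of this list, was at 94.9 to 97.4 CPM with vehicle and at 98.0, 87.0 and 77.5 CPM with PSB-KD107.

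The interferon receptors and their signaling genes, 12 in all, had a median fitted log2 fold change of 0.02 and 0 calls with either tool. Ifnar2, a chain of the type I receptor, was at 20.5 to 24.4 CPM with vehicle and at 18.3, 20.3 and 16.1 CPM with PSB-KD107. Ifngr2, a chain of the type II receptor, was at 33.8 to 41.8 CPM with vehicle and at 40.8, 41.7 and 64.8 CPM with PSB-KD107. Of 8 interferon and TNF genes none passed the filter. Ifnb1, the beta interferon, was named after its values were seen, as it had 13 counts in PSB-KD107 library 4 and 0 in the other libraries, where 0 allows up to 0.0596 to 0.0962 CPM.

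Of the lists examined, that of interferon-stimulated genes outside the class I pathway had the highest median difference in PSB-KD107 library 4. Of 43 genes listed, 35 were tested, and all 35 were at least 2-fold above every other library in library 4 (3.58% of all genes). The median difference from the vehicle mean was 0.42 in library 1, -0.09 in library 2 and 5.62 in library 4, and the summed level was 179 to 234 CPM with vehicle and 295, 193 and 4658 CPM with PSB-KD107. Rsad2, an antiviral enzyme known as viperin, was at 2.53, 1.78 and 1.58 CPM with vehicle and at 8.60, 3.62 and 217 CPM with PSB-KD107. Irgm1, an interferon-inducible GTPase, was at 8.78, 6.50 and 6.55 CPM with vehicle and at 21.2, 12.1 and 184 CPM with PSB-KD107. Cxcl10, a chemokine that attracts T cells, was at 0.587, 0.516 and 0.403 CPM with vehicle and at 4.63, 0.738 and 29.2 CPM with PSB-KD107. The groups did not overlap for these 3 genes, which were picked by their p-values. Over the 35 tested, the groups did not overlap for 9 genes, all with PSB-KD107 higher (9.2% of all genes). In library 1, 19 were above all vehicle libraries and 6 below, against 29.8% and 30.0% of all genes. In library 2, 10 were above and 12 below, against 27.5% and 23% of all genes. Ifitm3, an antiviral membrane protein and the most abundant of the list, was at 21.2 to 45.5 CPM with vehicle and at 65.7, 30.5 and 311 CPM with PSB-KD107. DESeq2 called 1 of the 35, Cxcl10 (higher), and gave no adjusted p for 24, while edgeR called 0. The median fitted log2 fold change of the list was 4.08, and 0.22 without library 4. The part of this response in the values of the class I genes was not tested.

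**Figure D4:**
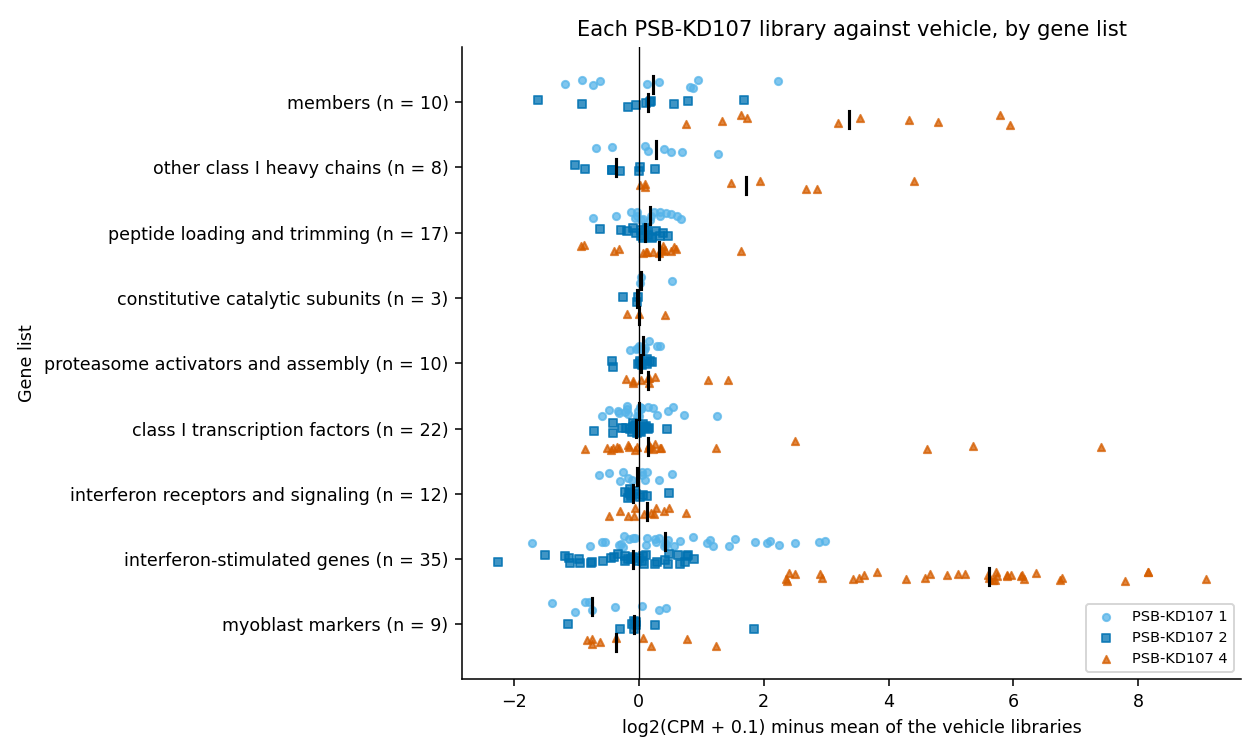
Difference of each PSB-KD107 library from the vehicle mean in log2(CPM + 0.1), with 1 point per tested gene and a bar at the median of each list. Library 4 lies to the right for the class I and immunoproteasome genes (median 3.37) and the interferon-stimulated genes (median 5.62), and near 0 for the constitutive subunits (median 0.01).

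The MHC class II genes, whose transactivator is Ciita, were near or at 0. Of 11 listed, 5 had no count in any library, H2-Aa among them, and Ciita had at most 2 counts in a library. H2-DMa, the most abundant, was at 3.04 to 3.72 CPM with vehicle and at 3.08, 2.92 and 2.78 CPM with PSB-KD107. The summed level was 3.64 to 4.56 CPM with vehicle and 3.62, 3.66 and 3.52 CPM with PSB-KD107, most of it from H2-DMa. The classical chains H2-Ab1 and H2-Eb1 were named after their values were seen, as both were highest in PSB-KD107 library 4, with 7 counts of H2-Ab1 against at most 2 in any other library and 4 counts of H2-Eb1 against at most 1.

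The libraries carried the markers of myoblasts, with a summed level of 8692 to 9225 CPM with vehicle and 7705, 8385 and 8694 CPM with PSB-KD107 over 9 markers, including Myod1 and Des. Pax7, a stem cell marker, was at 68.8, 49.9 and 60.0 CPM with vehicle and at 34.0, 26.8 and 35.1 CPM with PSB-KD107, with no overlap. Myog, a marker of differentiated myoblasts, was lower too, at 2042, 2203 and 2158 CPM with vehicle and 1175, 1726 and 1661 CPM with PSB-KD107. The groups did not overlap for 2 of the 9 markers, both lower with PSB-KD107 (6.59% of all genes). Myf5, named after its values were seen, was at 3.57, 18.6 and 21.3 CPM with vehicle and at 4.23, 40.9 and 26.8 CPM with PSB-KD107. Of 15 immune cell markers 6 were at 0 in every library, Adgre1, Cd52, Tyrobp, C1qa, C1qb and C1qc, and Ptprc, which encodes CD45, had at most 1 count. Their summed level was 2.76 to 5.77 CPM with vehicle and 7.35, 3.11 and 1.95 CPM with PSB-KD107, lowest in library 4. Most of the vehicle sum was Itgam, which encodes CD11b, at 4.24, 2.72 and 1.92 CPM with vehicle and at 2.64, 1.25 and 0.385 CPM with PSB-KD107. Cd68, a lysosomal protein of macrophages, was at 0.372 to 0.573 CPM with vehicle and at 3.84, 1.19 and 0.220 CPM with PSB-KD107. Laptm5, a lysosomal protein of blood cells, was instead highest in library 4, at 0.258 to 0.587 CPM with vehicle and at 0.755, 0.513 and 1.16 CPM with PSB-KD107. The endothelial markers, of which Tie1 and Emcn were at 0 among 5, summed to 0.248 to 0.893 CPM with vehicle and to 0.358, 0.321 and 0.990 CPM with PSB-KD107. The 5 fibro-adipogenic markers, of which Lum was at 0, summed to 1.80 to 5.05 CPM with vehicle and to 6.58, 2.25 and 10.6 CPM with PSB-KD107. Most of the last value was Ly6a, which encodes Sca-1 and is also raised by interferon, at 1.25, 0.344 and 0.155 CPM with vehicle and at 1.29, 0.417 and 8.36 CPM with PSB-KD107. Dcn, a matrix proteoglycan, was at 0.516 to 0.689 CPM with vehicle and at 1.25, 0.577 and 0.0275 CPM with PSB-KD107, the last of which is 1 count. The markers of this list thus did not move together in library 4. Pdgfra, a defining marker of these cells, was at 0.713 to 1.17 CPM with vehicle and at 1.15, 0.609 and 1.46 CPM with PSB-KD107. The part of such cells in the class I values was not tested.

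The genes most like the class I group over the 6 libraries were found by correlating log2(CPM + 0.1) with the mean of the standardized values of the 10 genes. The 10 highest were Trip10, Cast, Irgm2, Far1, Cd47, March6, Trim21, Bst2, Ifi35 and 2610301B20Rik, with Pearson's r from 0.994 to 0.999. These 6 points include PSB-KD107 library 4, which lies far from the other 5 for most of the 10 genes. Trim21, an intracellular antibody receptor, was at 2.73 to 2.96 CPM with vehicle and at 2.70, 2.63 and 22.7 CPM with PSB-KD107. Bst2, the antiviral protein tetherin, was at 4.18 to 6.24 CPM with vehicle and at 7.39, 9.40 and 331 CPM with PSB-KD107. Far1, an enzyme of ether lipid synthesis, was at 74.4 to 75.1 CPM with vehicle and at 74.3, 74.5 and 88.3 CPM with PSB-KD107, so that a close correlation did not require a large difference.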

How the data were processed

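Polyadenylated RNA of mdx myoblasts was sequenced in paired-end mode from a directional library kit, and the reads were aligned by the authors to the mouse genome (mm10 per the submitters' processing notes) with STAR. The authors deposited raw counts per gene without normalization. The counting program, its annotation and its use of strand are not given in the sources used here. The count table has 47069 genes, 22883 of them with no count. Its libraries numbered 4 were assigned to a group by column name but to no single sample record, since the records are numbered 1 to 3.

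Genes were filtered with filterByExpr, which kept 14165, scaled with TMM factors and tested with edgeR 4.0.16 in R 4.3.3 by the quasi-likelihood test, with Benjamini-Hochberg adjustment over all genes tested and a threshold of 0.05. The groups of 3 libraries were compared with no covariate. The standard errors given were back-calculated from the test, as the absolute log2 fold change divided by the square root of its F statistic. P-values measure the spread between these libraries, which the methods trace to 3 mice. Differences of single libraries were computed on log2(CPM + 0.1), which understates changes of low genes, and FPKM from the exon length in GENCODE M21 (GRCm38), with Python 3.11.15 and pandas 2.3.3. Upstream sequences came from RefSeq (GRCm38.p6), and the motif letters were chosen after these sequences had been read.

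The genes and the 13 lists beside them were chosen with earlier results of these data known. All 10 genes were named, and from each list the 3 with the smallest p-value, the most abundant one, the constitutive subunits Psmb5, Psmb6 and Psmb7, and the 10 genes most alike. Some of these genes are left out of the text. Nrdc, listed under peptide loading, had no match in the table. Scripts were tested on simulated counts. Alternatives were RLE factors, no filter, an FPKM filter (mean of 1 or more in either group), DESeq2 1.42.0 on all genes with a count, the recipe of the study's methods (DESeq2, 2-fold change, FPKM filter), a replicate block, and the omission of each library in turn. DESeq2 with a library left out, the block over all 6 libraries, and libraries 1 and 2 without a block were added after seeing the data.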

Additional observations from a re-analysis of the deposited data

How the results depend on the processing

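edgeR called 0 genes in every alternative tried except without the filter (8 genes) and with the replicate block fitted on the libraries numbered 1 and 2 (2456 genes), where 1 residual degree of freedom is left. These 4 libraries without the block, and the block over all 6 libraries, gave 0. In the block on 4 libraries 6 of the 10 genes were called by edgeR, H2-K1 (adjusted p = 0.0267), B2m (adjusted p = 0.000639), Psmb10 (adjusted p = 0.0072), Nlrc5 (adjusted p = 0.00506), Tap2 (adjusted p = 0.0275) and Psmb8 (adjusted p = 0.0175), and without the block none was (adjusted p of 0.608 or more). DESeq2 called 410 genes, 191 with the 2-fold change and FPKM filter, and 160 to 768 with a library left out. Vehicle and PSB-KD107 libraries of the same number correlated in their deviations from the group means by 0.632, 0.520 and -0.130 for the numbers 1, 2 and 4. Vehicle library 1 with PSB-KD107 library 2 gave -0.701, and vehicle library 2 with PSB-KD107 library 1 gave -0.522. Vehicle library 4 gave 0.645 with PSB-KD107 library 2. Whether libraries of 1 number share a mouse is not stated in the sources used here. The main test therefore used no pairs, and would miss a pairing if there was one.

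The median of the 10 class I and immunoproteasome genes went from 2.14 to 0.10 with the replicate block on libraries 1 and 2, to 0.10 for these libraries without the block, and to between 0.12 and 2.60 with a library left out. That of the interferon-stimulated genes went from 4.08 to 0.16, 0.14 and, with a library left out, 0.22 to 4.62, and that of the proteasome activators from 0.082 to 0.0205 and 0.0201. These settings lack PSB-KD107 library 4, as do the lowest values with a library left out. The block over all 6 libraries, which keeps library 4, also lowered the medians, to 0.73 for the 10 genes and 1.52 for the interferon-stimulated genes, and took H2-K1 from 4.29 to 2.00 and Psmb8 from 2.89 to 0.0948. Some single genes changed direction in the same way, with the libraries numbered 1 and 2 given first with the replicate block, then without it. Tap1 went from 0.69 to -0.22 and -0.23, Tap2 from 0.03 to -0.34 and -0.35 (and to -0.0665 with the block over all 6 libraries), Tapbp from 0.59 to -0.0557 and -0.0516, Psmb8 from 2.89 to -1.83 and -1.81, and Psmb9 from 1.92 to -1.18 and -1.25. With a library left out, in edgeR or DESeq2, they ranged from -0.33 to 1.09 for Tap1, -0.50 to 0.35 for Tap2, -0.0249 to 0.85 for Tapbp, -1.73 to 3.47 for Psmb8 and -1.05 to 2.46 for Psmb9. For all of these except Tap2 the values below 0 came from leaving out PSB-KD107 library 4, and for Tap2 also from leaving out vehicle library 1 (-0.22). H2-K1, H2-D1, B2m, Psmb10 and Nlrc5 were higher with PSB-KD107 in every alternative tried that gave a value. The DESeq2 call of B2m was lost without vehicle library 1, 2 or 4 (adjusted p = 0.293, 0.279 and 0.265, DESeq2). That of Psmb10 was lost without vehicle library 1, 2 or 4 (adjusted p = 0.0678, 0.327 and 0.416, DESeq2) and without PSB-KD107 library 1 (adjusted p = 0.0882, DESeq2). That of Nlrc5, a gene chosen with its levels in these libraries known, held each time (adjusted p from 2.09e-05 to 0.0254, DESeq2). The cause of these changes was not tested.

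Psmb8, Psmb9 and Nlrc5 rest on 44 or fewer counts in each vehicle library, which limits the precision of their ratios. Genes with nearly all counts in 1 library, such as H2-Q4, fail the filter and have no fitted value, and Psmb9 and Nlrc5 have none under the FPKM filter. Counting error and the spread between 3 libraries are the errors given.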
